A study of Mus musculus with 35 samples.

Results

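H3K4me3 ChIP-seq of wild-type mouse retina was compared between postnatal day 14 (P14) and the day of birth (P0). The 4 libraries were P0 replicates 1 and 2 and P14 replicates 2 and 3, all from whole retina of wildtype mice and all made with the antibody the labels call H3K4me3-AB2. They belong to a series of 35 samples on the chromatin remodeler Brg1 in the developing mouse retina, of which 27 carry a list of peaks or islands. Set beside them were wild-type H3K27Ac and H3K27me3 libraries of P0 and P14 and wild-type H3K4me3 libraries of P12 and P21. A BRG1-FLAG library of P0 retina came from BRG-FLAG mice. The labels give neither strain nor sex, and they do not say how many animals contributed to a library, so the spread between 2 libraries of a stage may be partly technical. Overlapping peaks of the 4 lists were merged into regions, which gave 23846 regions. The height of a region in a library is the largest fold enrichment over background of its peaks there, and the width is the distance in bp from the first start to the last end of its peaks there, gaps between them included.

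Trimethylation of lysine 4 of histone H3 is deposited around the start sites of genes that are active or poised for activity, and it spreads over longer stretches at genes that are strongly expressed or that define a cell type. Acetylation of lysine 27 (H3K27Ac) marks active promoters and enhancers, whereas trimethylation of the same lysine (H3K27me3) is laid down by Polycomb complexes at silenced developmental genes, and promoters with both trimethyl marks are called bivalent. At birth the mouse retina holds dividing progenitor cells next to newborn neurons, and by P14 proliferation has ended and rod photoreceptors are the majority of its cells. In whole retina, a smaller number of cells with a mark and less of the mark in each cell cannot be told apart.

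The lists held 21181 and 21661 peaks at P0 and 19829 and 19669 at P14. They covered 29.1 and 32.8 Mb at P0 and 25.0 and 27.4 Mb at P14, so the P0 lists were the longer ones on both measures. Read depth is unknown from these lists, and their length is given instead. Regions are named by their position on mm9, the build the submitters' notes give. An annotation of mm9 was not used here, so no region was assigned to a gene and the labelled tissue was not checked against its marker genes.

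Most H3K4me3 regions were present at both ages. A peak in all 4 libraries was found for 15986 regions (67.0%). The remaining regions fell more often on the P0 side, with 2317 regions (9.72%) that had a peak in both P0 libraries and in neither P14 library and 989 regions (4.15%) with the reverse pattern. Another 723 regions were in both P0 libraries and 1 P14 library, 243 were in both P14 libraries and 1 P0 library, and 183 had 1 peak at each age. A further 3405 regions appeared in 1 library, of which 1859 were in P0 replicate 2. When each list was cut to its 19669 strongest peaks, the length of the shortest list, 1561 regions were left with peaks only at P0 and 1082 with peaks only at P14. When peaks were required to be among the strongest 50% of their library, these numbers were 813 and 225. With peaks within 500 bp merged they were 2109 and 725. Presence in 2 libraries per age allows no test for a single region. Without P0 replicate 1 the number present only at P0 was 4284, and without P14 replicate 2 or P14 replicate 3 the number present only at P14 was 1885 or 1786. A peak in the 1 remaining library of that age is then enough, so these numbers rise by the rule itself.

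The regions present at only 1 age were mostly low and narrow. Those found only at P0 had median heights of 5.01 and 6.33 in replicates 1 and 2 and median widths of 477 and 607 bp. Those found only at P14 had median heights of 5.74 and 5.81 in replicates 2 and 3 and median widths of 471 and 610 bp. Regions shared by all 4 libraries had median heights between 28.1 and 34.0. A minority of the P14 regions was broad, and 129 of 989 (13.0%) were wider than 2000 bp in at least 1 library, compared with 43 of 2317 (1.86%) for the P0 regions.

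The tallest regions present only at P14 were long domains. The first, chr11:67508260-67514732, had heights of 44.8 and 42.5 and widths of 6471 and 6217 bp in P14 replicates 2 and 3. The region chr11:90048873-90051361 followed, with heights of 45.4 and 28.3. The region chr11:3619132-3624385 had heights of 35.3 and 32.4 and widths of 5110 and 5236 bp. Neither P0 library had a peak in any of them, while the P14 values were above the median of regions shared by all libraries, except for 1 value of the second. Among the 10 tallest such regions the heights ranged from 18.1 to 45.4 and the widths from 2050 to 6471 bp. All 10 had an H3K27Ac peak in both P14 libraries and 0 had one in both P0 libraries. The P0 count, here and below, is limited by the shorter P0 list, of 17588 H3K27Ac peaks against 29304 in the other. All 10 also had an H3K4me3 peak in the P12 library and in both P21 libraries.

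The tallest regions present only at P0 were shorter. The region chr6:125298981-125300723 had heights of 21.9 and 30.8 and widths of 1626 and 1706 bp in P0 replicates 1 and 2. The region chr12:3890865-3893079 had heights of 29.1 and 23.2. The region chr1:42742750-42744224 had heights of 21.2 and 28.2, and it overlapped an H3K27me3 island in both libraries of each age. Over the 10 tallest, heights ranged from 15.9 to 30.8, widths from 1172 to 4306 bp, and 9 carried a peak of BRG1-FLAG, the tagged Brg1 protein measured in P0 retina of BRG-FLAG mice. An H3K4me3 peak was present at 5 of these 10 in the P12 library, at 3 in P21 replicate 1 and at 0 in P21 replicate 2.

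Some stretches of the genome held several regions present only at P0. In windows of 200000 bp, chr11:96000001-96200000 held 13 H3K4me3 regions, of which 11 were present only at P0. The window chr5:120000001-120200000 held 10, of which 8 were present only at P0, and chr5:75400001-75600000 held 12, of which 7 were. In chr2:74400001-74600000 the count was 6 of 15, and in chr6:52000001-52200000 it was 6 of 18. Every one of these regions in the 5 windows overlapped an H3K27me3 island in both libraries at P0 and again at P14, and none had an H3K27Ac peak in both libraries of either age. Their heights were between 2.36 and 21.01. The 5 windows with the most regions gained held 6 each, among 10 to 26 regions, with heights of 2.66 to 30.3. Between 4 and 6 of the 6 had an H3K27Ac peak in both P14 libraries, and between 0 and 2 had one in both P0 libraries. In chr9:57600001-57800000 and chr19:53800001-54000000 all 6 had H3K27Ac at P14 and 0 at P0. These windows were chosen for their counts and are a description without a test.

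Heights were then compared in the 15986 regions with a peak in all 4 libraries, after scaling each library to the same median, which brought the medians of 32.1, 34.0, 28.1 and 28.7 together. With limma and Benjamini-Hochberg adjustment at 0.05, 1186 regions differed between the ages, which was 7.42% of those tested. Of these, 288 (1.8%) were higher at P14 and 898 (5.62%) were lower. The model gave every region a common SE of 0.39 on the log2 scale, and the smallest difference it called was 1.13. The 2 libraries of an age did not overlap the 2 of the other age in 287 of the 288 higher regions and in 896 of the 898 lower ones, against 46.3% of all regions tested (20.9% higher and 25.3% lower). The split between directions depended on the scaling, since quantile normalization left 385 higher and 405 lower regions and no scaling, which moved the median difference of all regions to -0.23, gave 171 higher and 1559 lower. Under quantile normalization 269 of the 288 and 405 of the 898 were called again, and 0 changed sign. The count of calls fell to 369 without P0 replicate 1, to 201 without P0 replicate 2, to 754 without P14 replicate 2 and to 800 without P14 replicate 3. In the strongest 50% of peaks limma called 0 regions, with 534 of 8794 at an unadjusted p under 0.05. Of the called regions, 27 of the 288 higher and 7 of the 898 lower were in that comparison with the same bounds. It therefore says little about the called regions.

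**Figure D1:**
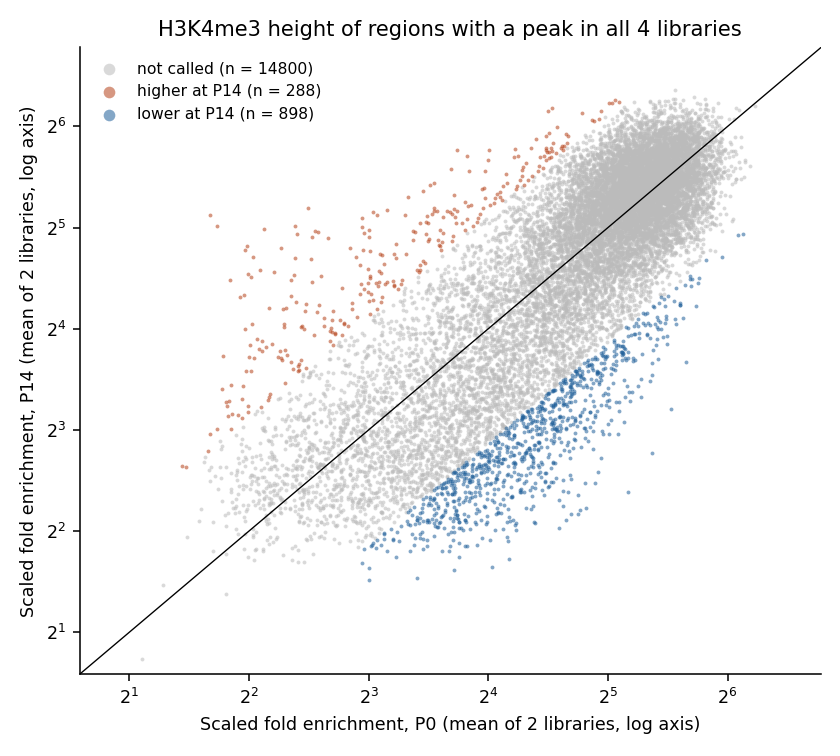
Mean scaled fold enrichment of H3K4me3 at P0 (x axis) and P14 (y axis) on log axes, for the 15986 regions with a peak in all 4 libraries; each point is a region and the line marks equal height. The 898 lower regions (blue) lie below the cloud at low to middle heights, and the 288 higher regions (red) lie above it.

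The largest rises were at regions that were near the lower end of the heights at P0. The region chr1:193800518-193806793 had heights of 3.76 and 3.13 in P0 replicates 1 and 2 and of 37.3 and 28.0 in P14 replicates 2 and 3. The difference was 3.45 ± 0.39 (SE) on the log2 scale, an 11.0-fold rise (limma, adjusted p = 1.17e-14). The next region, chr7:107804250-107814004, had heights of 3.79 and 3.37 at P0 and of 34.2 and 26.2 at P14, a difference of 3.28 ± 0.39 (SE). The third, chr5:92681618-92685554, had heights of 5.30 and 4.17 at P0 and of 26.7 and 32.2 at P14, a difference of 2.86 ± 0.39 (SE). It was the exception in width among these 3, with 3455 and 3488 bp at P0 and 3787 and 3937 bp at P14 (adjusted p = 0.278 in the width comparison). These stretches held 4 and 3 separate peaks at P0 and a single peak in each P14 library. Across the 12 regions with the largest rises, P0 heights ranged from 3.02 to 6.83 and P14 heights from 16.4 to 40.1. All 12 had an H3K27Ac peak in both P14 libraries and 5 had one in both P0 libraries, 0 overlapped H3K27me3 in both libraries of either age, and 11 had a BRG1-FLAG peak at P0.

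The largest falls reached similar sizes. The region chr9:65737675-65739920 had heights of 42.4 and 35.0 at P0 and of 4.50 and 5.19 at P14. Its height fell by 2.78 ± 0.39 (SE) on the log2 scale (limma, adjusted p = 2.52e-09), while the width went from 2128 and 2191 bp to 506 and 451 bp. The region chr11:95864083-95869555 had heights of 45.3 and 43.5 at P0 and of 5.74 and 6.93 at P14. It kept widths of 2746 and 2698 bp at P14, against 4902 and 5473 bp at P0, and overlapped H3K27me3 in both libraries of each age. The region chr3:128901806-128903565 went from heights of 27.6 and 31.1 to 5.46 and 3.35, and it also overlapped H3K27me3 at both ages. In the 12 regions with the largest falls, P0 heights ranged from 15.8 to 45.3 and P14 heights from 2.59 to 6.93. The number with H3K27Ac in both libraries was 4 at P0 and 0 at P14, and the number with H3K27me3 in both libraries was 6 at P0 and 7 at P14. The H3K27Ac count at P14 is limited by the shorter list, of 17433 peaks against 50005 in the other P14 library. A single processing choice ended the call at 1 of these 12, chr6:88146217-88147814, which was joined to a neighbouring region when peaks within 500 bp were merged and then differed by -0.72 (adjusted p = 0.313).

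**Figure D2:**
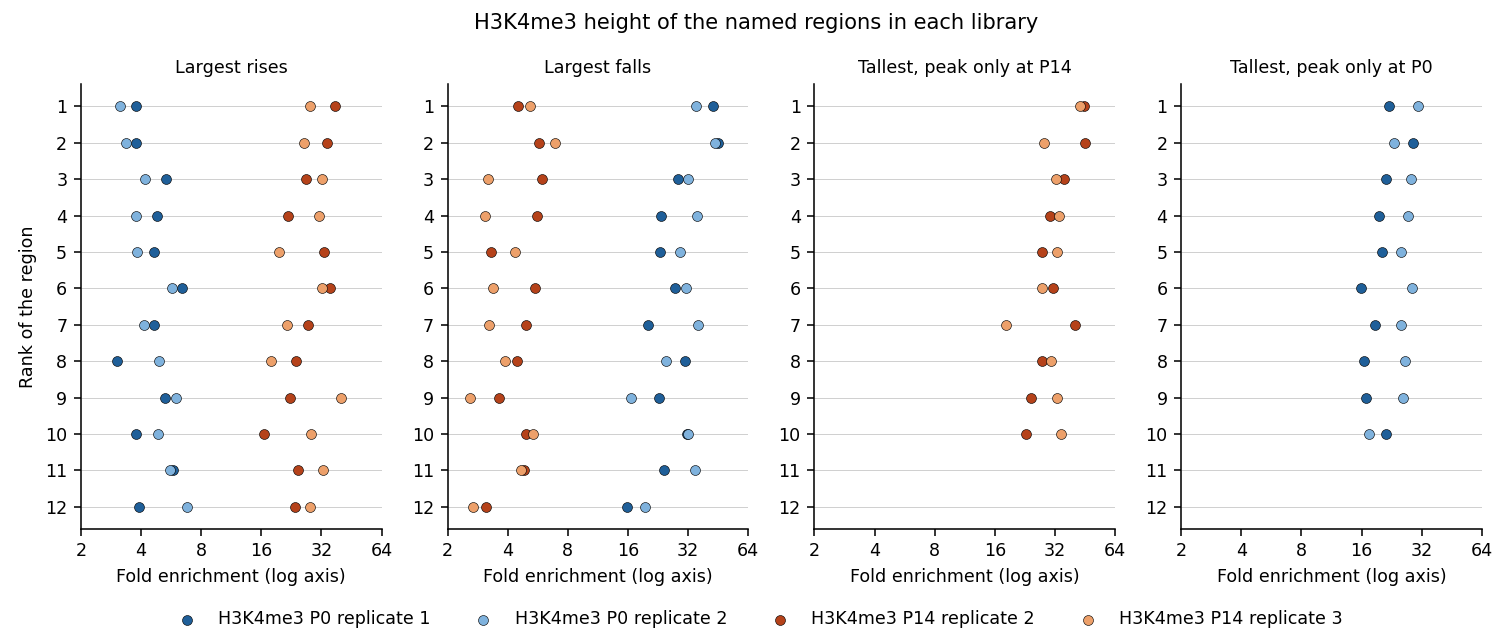
H3K4me3 fold enrichment (log axis) in each of the 4 libraries for the 12 regions with the largest rise and the 12 with the largest fall, and for the 10 tallest regions with a peak only at P14 or only at P0, ordered by rank. Regions of the first 2 panels were chosen among those whose ages do not overlap, so their P0 and P14 points are apart by selection. For the rises the heights were 3.02 to 6.83 against 16.4 to 40.1.

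A second model kept regions with a peak in at least 2 libraries and gave absent peaks a height of 0, with a pseudocount of 3.96. It tested 20441 regions and called 3888 (19%), 1191 higher (5.83%) and 2697 lower (13.2%) at P14. Of these calls, 967 were regions with peaks only at P14 and 2174 were regions with peaks only at P0, which had to differ, so the presence counts above carry this result. Quantile normalization turned the split to 1214 higher and 558 lower. With P0 replicate 1 or P0 replicate 2 left out, limma called 0 regions, with 2992 and 2749 at an unadjusted p under 0.05, and the adjusted p of the 10 tallest P14 regions rose from 0.0237 to between 0.0605 and 0.0903.

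Height change varied with the mean height of a region over the 4 libraries. In the 20% of shared regions with the lowest mean height the median difference was -0.40, and 15.6% of regions were lower and 3.38% higher at P14. In the 20% with the highest mean height the median difference was 0.17, and 0.0626% were lower and 0.344% higher. This mean includes the P14 values, so a fall itself moves a region into a lower group. At P0 the regions called lower had median heights of 20.2 and 24.3. Split by mean scaled P0 height, median differences in the groups by mark described below were 0.05 to 0.39 under 10. They were -0.56 to 0.04 at 10 to 20 and -0.46 to 0.07 at 20 or more. Either split shares values with the difference itself, so both are a description.

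Widths agreed more closely than heights between libraries of an age. The widths of the 2 P0 libraries had a Pearson correlation of 0.962 over the 15986 regions and those of the 2 P14 libraries one of 0.960, whereas pairs across ages had 0.824 to 0.842. For heights these values were 0.836 and 0.864 within an age and 0.722 to 0.784 across. The correlations are over regions of the same libraries and are given without a test. The median width over shared regions was 1555 and 1685 bp at P0 and 1369 and 1480 bp at P14. Without scaling, 79.4% of regions were narrower at P14, the median difference was -0.18 on the log2 scale, and limma called 3318 regions (20.8%), of which 427 (2.67%) were wider and 2891 (18.1%) narrower. With widths scaled to a common median, the median difference was 0.0043 and the calls were 1040 wider and 1989 narrower, so the general narrowing rested on the unscaled widths, and the 427 and 1989 calls were made either way. The libraries of the 2 ages did not overlap in any called region, against 67.8% of all regions tested (10.1% wider and 57.7% narrower). Fewer calls were made without P0 replicate 1 (807) and without P0 replicate 2 (254).

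**Figure D3:**
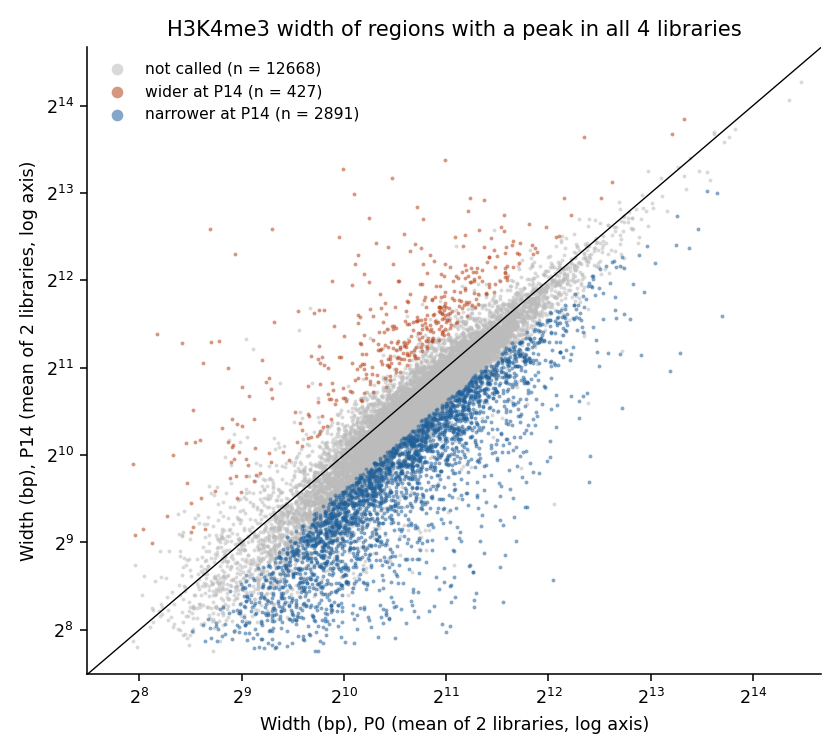
Mean width in bp of H3K4me3 regions at P0 (x axis) and P14 (y axis) on log axes, for the 15986 regions with a peak in all 4 libraries; each point is a region and the line marks equal width. The 2891 narrower regions (blue) follow the lower side of the cloud, and the 427 wider regions (red) include narrow P0 peaks that had become domains of several kb.

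Widened regions also had a positive median difference in height. Their median widths were 1512 and 1659 bp at P0 and 2794 and 2838 bp at P14, and their median height difference was 0.50. The median gain was 1094 bp and the largest 8912 bp, and 246 of the 427 changed by at least 1000 bp. In 80.3% of them more than 75% of the change was on 1 side of the peak, compared with 41.7% of the narrowed regions and 44.0% of those not called. The widest gain on the log2 scale was at chr1:193800518-193806793, the region with the largest rise, with 565 and 303 bp at P0 and 6120 and 6186 bp at P14, a difference of 3.89 ± 0.30 (SE) and 14.9-fold (limma, adjusted p = 0.00406). The region chr1:4340517-4350796 went from 876 and 1182 bp to 9602 and 10280 bp, and its heights were 4.80 and 6.26 at P0 and 22.3 and 19.2 at P14. The region chr7:107804250-107814004 went from 1015 and 1972 bp to 8767 and 9755 bp. All 8 regions with the largest gains in width were also called higher, and all 8 had an H3K27Ac peak in both P14 libraries. The call at chr8:74086152-74091423, 498 and 481 bp at P0 and 5246 and 4857 bp at P14, was lost when peaks within 500 bp were merged (difference 0.05, adjusted p = 0.740).

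The narrowed regions had a median change of -594 bp and a largest change of -10178 bp. The region chr2:105499548-105503890 went from 4330 and 4132 bp at P0 to 298 and 485 bp at P14, a difference of -3.48 ± 0.24 (SE). H3K27Ac had a peak there in both libraries at P0 and not in both at P14. Its heights were 7.94 and 13.0 at P0 and 5.49 and 5.82 at P14 and were not called (adjusted p = 0.409), so its extent changed much more than its summit. The region chr9:108380853-108382990 went from 2083 and 2019 bp to 236 and 268 bp, with heights of 21.1 and 19.3 against 4.09 and 3.73. In each of these 2 stretches P0 replicate 1 had 2 peaks and P0 replicate 2 had 1. Without P0 replicate 2 the regions were merged anew, so their bounds can differ from those given here. The region that overlapped the first stretch most then differed by -3.16. That of the second differed by -1.35, against -3.03 with all libraries, and need not cover the same stretch. Neither kept its call. Of the 8 largest narrowings, 6 were also lower in height.

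Height and width moved together in part. Of the 898 lower regions, 583 were narrower and 0 wider, and of the 288 higher regions, 99 were wider and 7 narrower. The differences in height and width had a Pearson correlation of 0.57 over the 15986 regions. Both were measured on the same peaks, so this is a description.

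The 2 broadest H3K4me3 domains were the same at both ages and were broken into more peaks at P14. The widest at both was chr13:83858462-83881532, with 22334 and 23071 bp at P0 and 19578 and 19837 bp at P14. The next was chr17:86006833-86027783, with 20785 and 20951 bp at P0 and 16712 and 17581 bp at P14. Neither difference between first start and last end was called, at -0.20 and -0.28 (adjusted p = 0.172 and 0.0911). Within these stretches the mark was in 2 and 1 peaks at P0 and in 7 and 6 at P14 for the first domain, and in 1 and 1 against 7 and 8 for the second. By the summed length of the peaks both were narrower at P14, with differences of -0.91 and -1.02 on the log2 scale (limma, adjusted p = 0.00665 and 0.00511). Both were also called narrower in the strongest 50% of peaks, at -2.07 and -1.98 (adjusted p = 0.0041 and 0.0143), and with a mean-variance trend in the model (adjusted p = 0.011 and 0.00447). Neither domain was called with widths scaled to a common median, peaks within 500 bp merged, lists cut to equal length or a replicate block. By summed length, chr11:18907188-18921823 and chr11:85642255-85655894, also among the widest of both ages, were called narrower too, at -0.71 and -0.88. Another of the widest, chr3:87941874-87955031, went the other way, at 1.04 (limma, adjusted p = 0.0121). Its peaks numbered 4 and 5 at P0 and 1 and 2 at P14. A different course was seen at chr2:173089450-173103397, sixth at P0 with 12649 and 13948 bp, which measured 2617 and 3624 bp at P14 while its heights of 56.6 and 46.0 at P0 and of 62.5 and 41.2 at P14 overlapped. Its width fell by 2.11 ± 0.18 (SE) on the log2 scale (adjusted p = 0.00487, and 0.0622 without P0 replicate 2). In the opposite direction, chr7:16457619-16470426 measured 4863 and 5583 bp at P0 and 12748 and 12784 bp at P14, a difference of 1.29 ± 0.11 (SE) with adjusted p = 0.00486.

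H3K27Ac and H3K27me3, which took no part in choosing the regions, differed between the groups of H3K4me3 regions. An overlap of 1 bp anywhere in a merged region was counted, so longer regions overlap a peak more readily. In the widest library of each region the median width was 2873 bp for widened and 1536 bp for higher regions. It was 652 bp for regions present only at P14. An H3K27Ac peak overlapped 4.4% and 16.6% of the regions present only at P14 in the 2 P0 libraries, and 70.3% and 91.0% in the 2 P14 libraries. For the widened regions these shares were 67.9% and 83.8% at P0 and 92.0% and 99.1% at P14, and for the regions higher at P14 they were 46.9% and 68.4% at P0 and 71.9% and 95.5% at P14. In these 3 groups both P14 shares were above both P0 shares. Over all regions with 4 peaks the shares were 70.8% and 84.7% at P0 and 51.5% and 89.0% at P14, and the lower P14 value belongs to a list of 17433 H3K27Ac peaks against 50005 in the other P14 library. The P0 lists held 17588 and 29304 peaks, so the longest of the 4 lists was at P14. At regions lower at P14 the shares were 31.7% and 64.4% at P0 and 3.8% and 46.0% at P14. At narrowed regions they were 49.3% and 73.1%, then 14.9% and 68.8%. At regions present only at P0 they were 9.9% and 31.5%, then 2.2% and 17.1%. In each of these groups the shares of the 2 ages overlapped. Where H3K27Ac had a peak in all 4 of its libraries, its own height difference between P14 and P0 had a median of 0.87 on the log2 scale in the higher regions (n = 116), 0.88 in the widened (n = 281), -0.38 in the narrowed (n = 409), -0.61 in the lower (n = 28) and -0.01 in all regions with 4 H3K4me3 peaks (n = 7718). The value of the lower regions changed with the libraries used, at -0.08 from the libraries numbered 1 and -1.29 from those numbered 2, and that of the widened regions was 1.16 and 0.57. Of the regions present only at P0, 1.08% had H3K27Ac in all 4 libraries, so no such value is given for them.

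**Figure D4:**
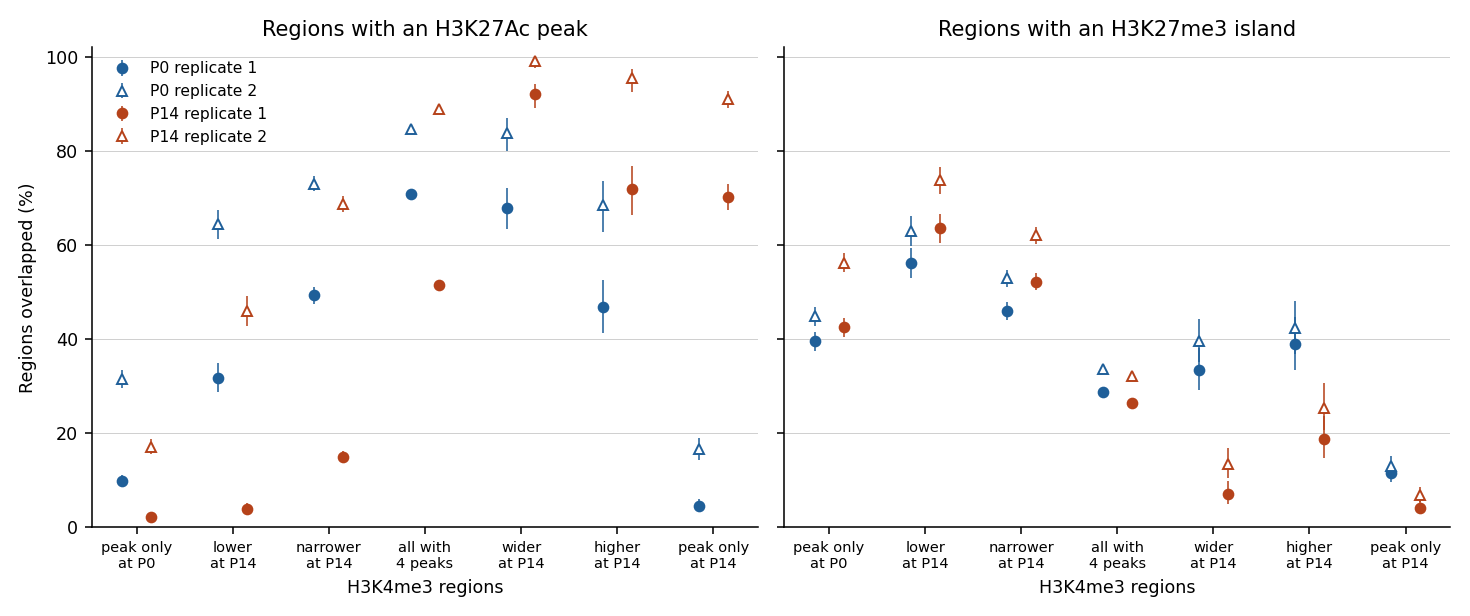
Share of H3K4me3 regions of each group (percent, y axis) that overlap an H3K27Ac peak (left) or an H3K27me3 island (right) in each library of P0 (blue) and P14 (red); bars are Wilson 95% intervals, which cover counting error only. At regions with a peak only at P14, H3K27Ac rose from 4.4% and 16.6% to 70.3% and 91.0%, and at regions lower at P14, H3K27me3 was at 56.2% and 63.0% at P0 and 63.6% and 73.7% at P14.

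H3K27me3 was most frequent at regions lower at P14, followed by the narrowed ones, among the groups compared here. Islands of H3K27me3 overlapped 56.2% and 63.0% of the regions lower at P14 in the 2 P0 libraries and 63.6% and 73.7% in the 2 P14 libraries. For regions present only at P0 the shares were 39.5% and 44.8% at P0 and 42.5% and 56.2% at P14, and for narrowed regions they were 46.0% and 52.9%, then 52.2% and 62.1%. Over all regions with 4 peaks they were 28.8% and 33.7%, then 26.5% and 32.2%. The P14 lists were also longer, with 15995 and 30996 islands against 12188 and 20743 at P0, and at regions present only at P0 and at narrowed regions the shares of the 2 ages overlapped. At widened regions H3K27me3 went from 33.5% and 39.6% at P0 to 7.0% and 13.3% at P14, and at higher regions from 38.9% and 42.4% to 18.8% and 25.3%.

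H3K4me3 regions at birth differed in their later course by the marks they shared, in part along with their height. A region was assigned H3K27Ac or H3K27me3 where both libraries of that mark at that age overlapped it. Of the 19026 regions with a peak in both P0 libraries, 9898 had H3K27Ac without H3K27me3, and 2.13% of these (Wilson 95% interval 1.87 to 2.44) had no peak in either P14 library. With H3K27me3 without H3K27Ac there were 3895 regions, of which 22.4% (21.2 to 23.8) had no P14 peak. With neither mark there were 3581, of which 34.2% (32.7 to 35.8) had none, and with both marks 1652, of which 0.424% (0.205 to 0.872) had none. These groups were of unequal height at birth, with median heights of 39.3 and 39.9 in P0 replicates 1 and 2 for H3K27Ac alone, 32.6 and 34.6 for both, 12.4 and 14.4 for H3K27me3 alone and 7.40 and 10.1 for neither. Among regions with a mean scaled P0 height under 10 the shares without a P14 peak were closer for 3 of the groups, at 42.5% (37.9 to 47.3) of 421 regions with H3K27Ac alone, 50.5% (48.0 to 53.0) of 1541 with H3K27me3 alone and 54.6% (52.5 to 56.7) of 2104 with neither. The 35 regions with both marks in this range stood apart, with 11.4% (4.54 to 25.95). At 20 or more, between 0% and 0.367% of any group had lost its peak, where 0 was counted among 1444 regions with both marks (upper bound 0.265%). Peaks without a P14 counterpart were thus counted mainly among regions that were low at birth. These height ranges were chosen after the shares had been seen and are a description, with no test. The median change in height differed between the marks within the taller ranges also. Heights of the groups were not matched within a range, and the top range has no upper end, so height may still differ between the marks there. At a P0 height of 20 or more the median difference was 0.07 with H3K27Ac alone, -0.04 with both marks, -0.21 with neither and -0.46 with H3K27me3 alone, over 8815, 1444, 541 and 1075 regions with 4 peaks.

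The marks of a region at the 2 ages were also set side by side. H3K27Ac was assigned only where the shorter list of that age also had a peak, so its absence depends on that list. The shorter H3K27Ac list held 17588 peaks at P0 and 17433 at P14. Of the 989 regions present only at P14, 606 (61.3%) had neither mark at P0 and H3K27Ac at P14, against 6.17% of all 23846 regions. Another 43 (4.35%) had H3K27me3 at P0 and H3K27Ac at P14, against 0.847% of all regions. Of the 2317 regions present only at P0, 1031 (44.5%) had neither mark at either age, against 21.35% of all regions, and 754 (32.5%) had H3K27me3 at both, against 16.1%. Another 163 went from H3K27Ac to neither mark and 23 from H3K27Ac to H3K27me3. Of the 898 lower regions, 368 (41.0%) had H3K27me3 at both ages, against 13.8% of the regions with 4 peaks. Neither mark at either age was found at 158 (17.6%), against 8.98%. From H3K27Ac to neither went 118 (13.1%), close to the 13.5% of the regions with 4 peaks. A further 58 (6.46%) went from H3K27Ac and 70 (7.80%) from both marks to H3K27me3, against 2.63% and 4.76%. Of the 427 widened regions, 215 (50.4%) had H3K27Ac at both ages, against 43.0% of all regions with 4 peaks. Another 43 (10.1%) went from H3K27me3 and 63 (14.8%) from both marks to H3K27Ac alone, against 0.732% and 3.0% of the regions with 4 peaks.

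BRG1-FLAG at P0, measured in 1 library, overlapped 80.0% of the regions with 4 peaks and 88.5% of those that later widened. It overlapped 64.7% of the lower regions, 47.4% of those present only at P0 and 34.7% of those present only at P14. At the last group neither wild-type P0 library had an H3K4me3 peak, and H3K4me3 was not measured in BRG-FLAG mice. A longer region overlaps a peak more readily, and these groups differed in length. Taking the widest library of each region, the median was 2873 bp for widened regions and 1746 bp for those with 4 peaks. It was 626 bp for regions present only at P0 and 652 bp for those present only at P14. Whether the shares differ beyond length was not tested.

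At these regions the P12 and P21 libraries were closer to P14 than to P0. The single P12 library had a peak at 94.6% of the regions found only at P14 and at 33.1% of those found only at P0. P21 replicates 1 and 2 had a peak at 99.3% and 79.8% of the first and at 22.9% and 1.99% of the second. The P21 lists held 24124 and 18534 peaks, so the shorter list had the lower share in each case. In the 15123 regions with a peak at all stages, the regions higher at P14 had median scaled heights of 9.16 and 10.7 at P0, 24.2 at P12, 31.7 and 29.6 at P14 and 28.0 and 29.9 at P21. The lower regions had medians of 24.2 and 27.1 at P0, 11.0 at P12, 9.05 and 9.52 at P14 and 7.15 and 9.78 at P21. A peak at all stages was found for 281 of the 288 higher and 669 of the 898 lower regions. Of the lower regions 74.7% had a peak in P21 replicate 2, so their P21 medians leave out regions whose P21 signal was too low to be listed. The P12 values lay between those of P0 and P14 in both groups and were closer to P14. With all 6 libraries of P0, P14 and P21 in the model, P21 and P14 differed in 21 regions (0.139% of those tested), 11 higher and 10 lower at P21, and 1282 had an unadjusted p under 0.05. Of these 21, 1 had been higher and 1 lower at P14 than at P0. The comparisons of P14 with P0 and with P21 share the P14 libraries.

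**Figure D5:**
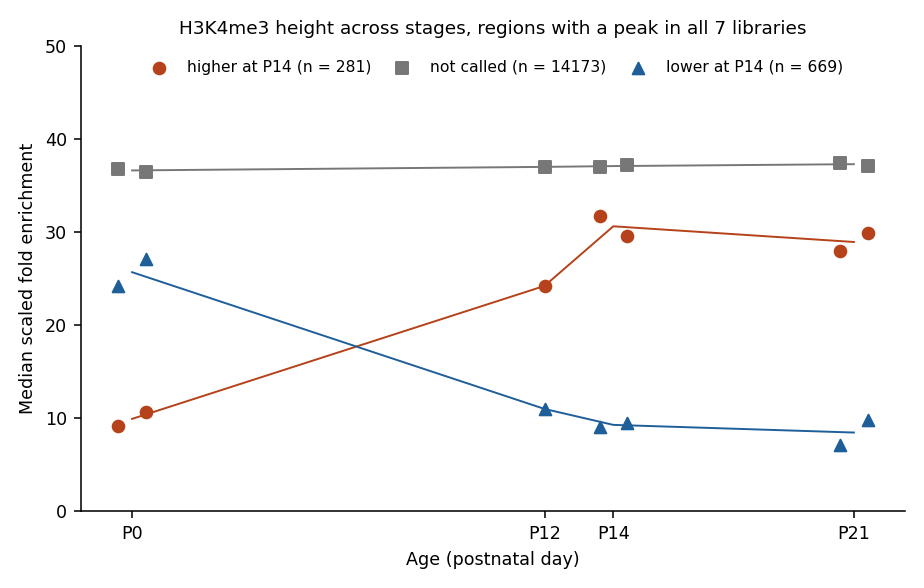
Median scaled fold enrichment of H3K4me3 (y axis) in each of 7 libraries by age (x axis, postnatal day), for regions called higher, lower or neither at P14 against P0 and with a peak in all 7 libraries; points are libraries and lines join the means of an age. The higher group goes from 9.16 and 10.7 at P0 to 31.7 and 29.6 at P14 and 28.0 and 29.9 at P21, and the lower group from 24.2 and 27.1 to 9.05 and 9.52 and then 7.15 and 9.78.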

How the data were processed

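Whole-retina ChIP-seq was analysed from the lists the authors deposited, made per library and not from pooled replicates. The submitters' processing notes name BWA 0.5.9-r26, Picard 1.65, MACS2 2.0.9, SICER 1.1, bedtools 2.17.0 and the build mm9. In the H3K4me3, H3K27Ac and BRG1-FLAG lists the authors' fold enrichment of each peak, a ratio to background at its summit, was used as height, and the deposited −log10 q-value to rank peaks. The weakest H3K4me3 peaks had a −log10 q-value of 1.31 to 1.51. H3K27me3 islands were used by position. Fold enrichment depends on library depth, which these lists do not give. No sequence and no gene name is reported because the reference tables are on another build and no coordinates were converted, so the planned gene lists, cell type markers and promoter motifs were not run.

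Peaks overlapping by 1 bp were merged. Heights were scaled on their median over the 15986 shared regions, and log2 heights and widths were compared with limma 3.58.1 (lmFit, eBayes) in R 4.3.3, with Benjamini-Hochberg adjustment over all regions tested at 0.05 and 2 libraries per age. Overlaps used Python 3.11.15, and Wilson intervals scipy 1.17.1. Named regions were the 12 largest rises and falls whose libraries did not overlap, the 10 tallest present at 1 age, the 8 largest changes in width and the 10 widest of each age. Regions, lists and rules were chosen with earlier results of these data known. On simulated heights with 200 of 15986 regions changed by 2 log2 units, 194 were recovered and 6 of 200 calls were false, and of changes of 1, 10 were recovered. For widths 190 and 105 were recovered, with 15 of 205 and 7 of 112 calls false. With absent peaks, 0 of 200 among 20441 regions were recovered. How many of the calls made on the deposited lists are false was not tested. The 2 P14 libraries are titled replicates 2 and 3, although the peak names in their lists carry 1 and 2, and the titles were followed. Brg1-deficient libraries were not used here.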

Additional observations from a re-analysis of the deposited data

How the results depend on the processing

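By their titles the ages share only replicate 2, but peak names in the P14 lists carry the numbers 1 and 2. A replicate block by those numbers, added after seeing the data, gave 1100 height, 4229 absent-peak and 3773 width calls. Deviations of equally numbered libraries had correlations of -0.03, -0.02 and 0.06, and no label ties them to an animal or batch. The 1186 height calls became 790 with quantile normalization and 741 with the P21 libraries also in the model (15123 regions with a peak in all 6 libraries). They became 0 in the strongest 50% of peaks, which held few of the called regions with the same bounds. Leaving out 1 library gave 201 to 800. The 3888 calls with absent peaks became 1772 with quantile normalization and 1025 in the strongest 50% of peaks, and leaving out 1 library gave 0 to 3307, where the 0 came from leaving out a P0 library, which also takes regions present only at P0 below the minimum of 2 libraries. The 3318 width calls became 738 in the strongest 50% of peaks, and leaving out 1 library gave 254 to 3458. The median width difference of -0.18 became 0.0043 when widths were scaled to a common median, by construction of that scaling. Regions present only at P14 numbered 225 and only at P0 813 in the strongest 50% of peaks, and leaving out 1 library gave 1028 to 1885 and 2608 to 4284. Leaving out 1 library loosens the presence rule, which then rests on 1 library of an age, so these counts rise by the rule itself. For these alternatives the cause of a changed count was not tested apart from those named. With 1 library left out, the remaining one is assumed to vary like the other age. Among the named regions, all 48 height differences of the 12 largest rises and all 48 of the 12 largest falls kept their call when 1 library was left out, as did 32 of 32 for the largest gains in width and 27 of 32 for the largest losses. The 20 tests of the regions present only at P14 without a P0 library lost their call. A weak peak needs enough signal to be listed, so depth limits every count of peaks present at 1 age.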

Other observations

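Regions present only at P14 lay near other H3K4me3 regions. Their median distance to the nearest region with a peak in all 4 libraries was 11565 bp, and 17.0% were within 1000 bp of one. For regions present only at P0 the median was 26713 bp and 8.55% were within 1000 bp. Regions found in 1 library had a median of 14152 bp, with 21.6% within 1000 bp.

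The summits of shared regions stayed in place. The median distance between the summits of the 2 libraries of an age was 52 bp at P0 and 36 bp at P14, and across ages it was 41 to 62 bp.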
